A study of Mus musculus with 8 samples.

Results

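The genes described here encode the proteins that copy DNA in S phase: the origin recognition complex and its loading factors, the MCM helicase and its activators, the replicative polymerases and primase, the sliding clamp with its loader, the single-strand binding protein RPA, the enzymes that make deoxynucleotides, and a few regulators of S phase entry. They were chosen by gene symbol. No measured value enters the rule, but it was set with earlier results of these data known. It takes Mcm, Orc, Gins, Rfc, Rpa and Prim symbols followed by a digit, and the Pola, Pold and Pole symbols. To these it adds Cdc6, Cdc7, Cdc45, Cdt1, Dbf4, Pcna, Rrm1, Rrm2, Tyms, Ccne1, Ccne2, E2f1 and Uhrf1. The rule found 53 genes among 14033 symbols, each with 1 row in the table. Mcm3ap met the name pattern but encodes an mRNA export factor, not a subunit of the MCM helicase.

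RNA was measured in mouse fetal liver cells at E14.5, from embryos of a cross between Flt3-Cre mice and the mTmG reporter strain. In this reporter, cells make the red protein Tomato until Cre recombines the locus, and then they and their progeny make GFP. GFP+ cells therefore had Flt3-Cre activity in their own past or in that of an ancestor, and Tomato+ cells had not recombined. All cells of both fractions carry the reporter and were sorted by Kit, Sca1 and CD150 and for the absence of lineage markers. The sample titles give Kit and Sca1 a plus sign but give CD150 no sign. With CD150 present, this is a surface profile of hematopoietic stem cells. There were 4 libraries from each fraction and 8 in all. Whether the libraries came from separate embryos is not stated in the labels, so the spread behind the authors' p-values may be technical. The table used here holds a mean per fraction and no value per library, so no SD, interval or test across libraries is given, and the depth per library is unknown. All cells of a fraction were pooled into bulk RNA, in which fewer cells in S phase and less RNA per cell cannot be told apart.

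DNA replication is prepared in G1, when ORC, Cdc6 and Cdt1 load pairs of MCM2 to MCM7 rings onto origins. In S phase the kinases Cdc7-Dbf4 and cyclin E-Cdk2 activate these rings with Cdc45 and GINS, and polymerases alpha, delta and epsilon copy the strands. Many of these genes are transcribed at the transition from G1 to S under E2F factors. Fetal liver stem cells are known to cycle actively, in contrast to most adult stem cells.

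Members with an E2F word in the promoter are shown first, because E2F control is what this machinery is best known to share. Promoter windows of RefSeq (build GRCm38.p6, from 250 bases before to 50 after a gene's start) were at hand for 45 of the 53 genes. No window was at hand for Ccne2, Gins1, Gins2, Gins4, Mcm4, Pole, Prim2 and Rfc2. The words searched were TTTCCCGC, TTTCGCGC, TTTGCCGC and TTTGGCGC, on both strands. Capitals mark the words in 30-base stretches, each read 5′ to 3′ on the gene's strand, from all members in which such a stretch lay wholly before the start.
Mcm5 (chr8:75109347-75109376, plus strand): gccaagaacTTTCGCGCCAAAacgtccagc
Mcm6 (chr1:128359795-128359824, minus strand): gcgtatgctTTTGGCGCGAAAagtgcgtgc
Mcm6 (chr1:128359734-128359763, minus strand): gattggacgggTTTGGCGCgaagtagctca
Mcm7 (chr5:138172030-138172059, minus strand): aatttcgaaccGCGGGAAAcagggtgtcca
Orc1 (chr4:108579416-108579445, plus strand): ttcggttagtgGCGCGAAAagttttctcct
Orc3 (chr4:34614965-34614994, minus strand): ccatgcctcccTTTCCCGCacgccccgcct
Cdc6 (chr11:98908002-98908031, plus strand): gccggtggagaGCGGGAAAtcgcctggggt
Gins3 (chr8:95633507-95633536, plus strand): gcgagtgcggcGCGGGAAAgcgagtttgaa
Pola1 (chrX:93632275-93632304, minus strand): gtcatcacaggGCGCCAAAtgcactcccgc
Pole4 (chr6:82652890-82652919, minus strand): ctctacccggcGCGGGAAAggggccgaaat
Uhrf1 (chr17:56304117-56304146, plus strand): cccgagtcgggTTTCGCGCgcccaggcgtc
In Mcm5 and in the first Mcm6 stretch, a word on 1 strand overlaps a word on the other. In Mcm5 they begin 153 and 149 bases before the start, and in Mcm6 110 and 106.

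Of the 45 members with a window, 17 (37.8%) held at least 1 of these words, against 704 of all 27025 genes with a window (2.605%) and 431 of the 9186 that are also in the expression table (4.69%). Cdt1, Mcm3, Mcm8, Pold1, Pold3, Pole2 and Rfc3 are the other members with a word, which lay after the start or too close to it to be shown. The CCAAT word, known for binding NF-Y, was found in 27 of the 45 members (60.0%) and in 43.1% of table genes, and GGGCGG, known for binding Sp1, in 35 of 45 (77.8%) and 67.8%. More than 1 window was searched in 7 members. A match describes letters and is not evidence that a factor binds. The 17 members with an E2F word had a median log2 of GFP+ over Tomato+ of 0.10 and the 28 without of 0.15. With a word they ranged from -0.05 to 0.29, and without one from -0.50 to 0.37, so both sets overlapped.

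Rrm2 encodes the small subunit of ribonucleotide reductase, the enzyme that makes deoxynucleotides, and it is the only member that differed past the threshold. Its window held none of the 4 E2F words of 8 bases, but it did hold 1 of the same words shortened by the first T, TTGCCGC on the other strand, a search that matched 27 of the 45 members and 19.4% of table genes. The 250 bases before its start (GRCm38.p6, plus strand), with 1 CCAAT and both GGGCGG matches in capitals, 1 of the latter on the other strand, were these.
Rrm2 (chr12:24708004-24708253): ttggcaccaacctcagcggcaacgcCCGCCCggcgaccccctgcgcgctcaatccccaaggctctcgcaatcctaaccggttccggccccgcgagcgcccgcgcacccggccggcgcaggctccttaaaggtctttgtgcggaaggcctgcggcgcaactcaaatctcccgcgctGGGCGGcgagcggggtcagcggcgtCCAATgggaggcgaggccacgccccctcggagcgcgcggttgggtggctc

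The replication genes were expressed in both fractions, with group means at most 1.41-fold apart in any gene. Only Rrm2 passed the authors' adjusted p of 0.05, and it was higher in GFP+. That is 1 of 53 (1.89%), against 7.49% of all 14268 rows called in either direction, 4.86% called higher, 2.64% called lower and 6.9% of the 8349 other genes with an overall mean in the members' range of 129 to 4207 normalized counts. At an unadjusted p under 0.05 there were 5 members (9.43%), against 16.2% of all rows and 15.6% of the other genes in that range. At an adjusted p under 0.1 there were 2 members (9.63% of all rows) and under 0.01 none (4.9% of rows). The members' share of calls was thus not above the background by any of these counts.

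The differences were small and mostly on one side. Of the 53 members, 43 had a higher mean in GFP+ and 10 in Tomato+, and 52 had a log2 between -0.4 and 0.4. The members' median log2 was 0.13, a ratio of 1.09, and the middle of their distribution ran from 0.03 to 0.22 (25th to 75th percentile). The median was 0.01 over all rows and 0.04 over the other genes in the same range of means, of which 56.6% were higher in GFP+. Scaling to equal totals moves the members' median below 0, while centring keeps it above 0. The group means of all rows sum to 7926897 for GFP+ and 7111170 for Tomato+, and scaling both to the same total lowers every log2 by 0.16. The members' median then becomes -0.03 and 23 of 53 stay above 0, while the other genes in the range have a median of -0.12 and 29.2% above 0. Equal totals also move most of the table below 0, with 30.9% of all rows above 0 in place of 51.2%. Summed means had a GFP+ over Tomato+ ratio of 1.11 over all rows, 1.06 in those other genes and 1.12 in the members. Centring on the median of rows averaging 50 or more lowers every log2 by 0.03. It leaves the members' median at 0.10 and 39 of 53 above 0. The distance between the medians of the members and of the other genes in the range was 0.09. It is the same under each scaling by construction, since every log2 shifts by the same amount.

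**Figure D1:**
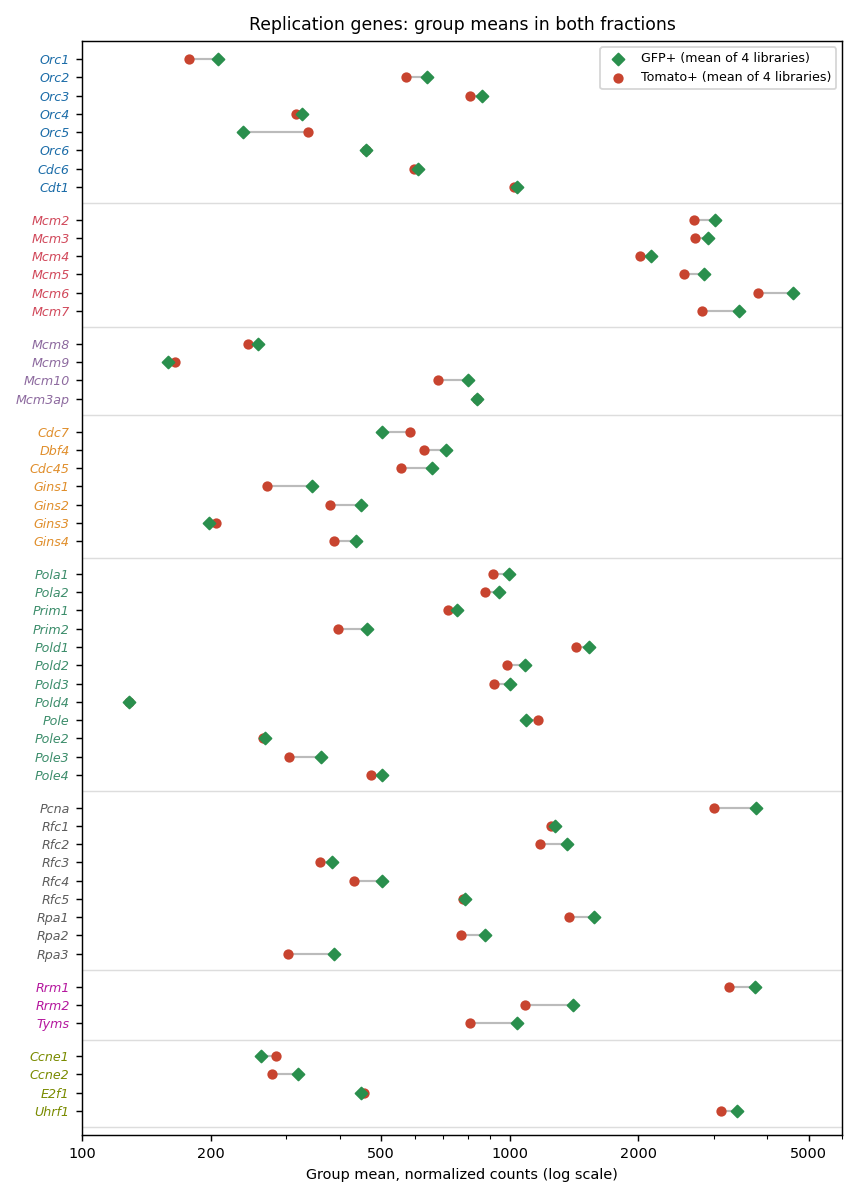
Mean normalized counts of each of the 53 replication genes in GFP+ (diamonds) and Tomato+ cells (circles), on a log axis, grouped by role with names coloured by role. The pairs lie close together, with the GFP+ mean on the right in 43 genes and Orc5 the widest pair in the other direction.

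**Figure D2:**
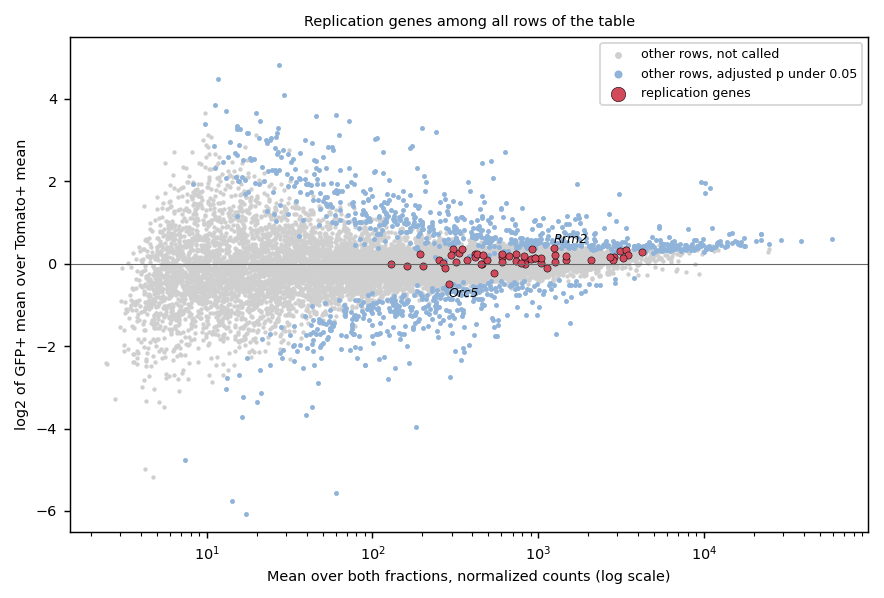
The log2 of the GFP+ over the Tomato+ mean against the mean over both fractions (log axis) for all 14268 rows, with replication genes in red and other rows past an adjusted p of 0.05 in blue. The replication genes lie in the narrow band around 0, at means of 129 to 4207, and Rrm2 is at its upper edge.

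The enzymes of deoxynucleotide synthesis had the largest median difference of the 8 roles. Where 2 means are given, the first is that of GFP+. In the authors' deposited table, Rrm2 averaged 1406 normalized counts in GFP+ cells and 1085 in Tomato+ cells, a 1.30-fold rise (log2 0.37, adjusted p = 0.0159, authors' DESeq). Its log2 is 0.22 after scaling to equal totals. Tyms, thymidylate synthase, which makes the thymidine nucleotide, averaged 1039 and 807 (log2 0.36, adjusted p = 0.253, the authors' deposited table), a difference of almost the same size that did not pass. Rrm1, the large subunit of ribonucleotide reductase, had 3741 and 3251 in the authors' deposited table, with a log2 of 0.20 and an adjusted p of 0.478. All 3 stayed above 0 after scaling to equal totals, with a median of 0.21.

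The clamp, its loader and RPA all had higher means in GFP+, in 9 of 9 genes, and none passed. Pcna, the ring that holds polymerases on DNA, had 3764 in GFP+ against 3009 in Tomato+ in the authors' deposited table, with a log2 of 0.32 and an adjusted p of 0.0833, the smallest after that of Rrm2. The RPA subunits, which coat single-stranded DNA, stood at log2 values of 0.19 for Rpa1, 0.18 for Rpa2 and 0.36 for Rpa3 by the authors' deposited table. Rpa3, the smallest subunit, had means of 388 and 303 there, and its adjusted p was 0.528. The RFC clamp loader subunits overlapped with them, from 0.02 for Rfc5 and 0.04 for Rfc1 through 0.09 for Rfc3 to 0.21 for Rfc2 and 0.22 for Rfc4 in the authors' deposited table. After scaling to equal totals, 6 of the 9 stayed above 0.

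The MCM2 to MCM7 helicase subunits lay within a narrow band. All 6 had higher means in GFP+, with a median log2 of 0.16, and none passed. Mcm7 had 3447 in GFP+ against 2810 in Tomato+ (log2 0.29, adjusted p = 0.177, the authors' deposited table). Mcm6 followed with 4603 and 3812 and a log2 of 0.27 in the authors' deposited table, where its adjusted p was 0.355. Mcm2 and Mcm5 stood at log2 values of 0.16 and 0.15, and Mcm3 and Mcm4 at 0.10 and 0.09, by the authors' deposited table. These 6 proteins form 1 ring, and their transcripts differed by at most 0.21 in log2 from each other. Such a band was not particular to them. The range was 0.20 in RFC, 0.18 in RPA, 0.17 in ribonucleotide reductase, 0.16 in polymerase alpha-primase and 0.14 in polymerase delta. It was wider in polymerase epsilon (0.34), GINS (0.40) and ORC (0.72). Scaled to equal totals, the median was 0.0011 and 3 of 6 were above 0.

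The other Mcm-named genes went to both sides. Mcm10, an initiation factor that stabilizes the active helicase, had 798 in GFP+ against 681 in Tomato+ in the authors' deposited table, a log2 of 0.23. Mcm8 and Mcm9, which work together in recombination repair, stood at log2 values of 0.08 and -0.05 by the authors' deposited table. Mcm3ap had means of 836 and 839 there.

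Among origin recognition and loading genes the median log2 was 0.04, and the member with the widest difference of all 53 lay in the opposite direction. Orc5, an ATP-binding ORC subunit, had 238 in GFP+ against 337 in Tomato+, 1.41-fold lower in GFP+ (log2 -0.50, adjusted p = 0.27, the authors' deposited table). It did not pass, although its unadjusted p of 0.0401 was the smallest of its role. Orc1, the subunit whose level is known to follow the cell cycle, had 208 and 178 in the authors' deposited table, a log2 of 0.22. Orc2, Orc3 and Orc4 had 0.16, 0.09 and 0.05 in the authors' deposited table. Orc6 was equal, at 460.9 and 461.1, by the same table of the authors. The loaders Cdc6, with 609 and 596, and Cdt1, with 1042 and 1025 in the authors' deposited table, stood at log2 values of 0.03 and 0.02.

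Of the genes of origin firing, 5 of 7 had a higher mean in GFP+ and 0 passed. Gins1, a subunit of the GINS complex that joins Cdc45 and MCM, had 344 in GFP+ against 271 in Tomato+, with a log2 of 0.34 and an adjusted p of 0.31 in the authors' deposited table. Gins2 and Gins4 stood at log2 values of 0.24 and 0.17, and Gins3 at -0.05, by the authors' deposited table. Cdc45 had 658 and 558, a log2 of 0.24 in the authors' deposited table. The 2 subunits of the firing kinase lay apart: Cdc7, the catalytic subunit, had 503 and 584 (log2 -0.22), and its activator Dbf4 had 710 and 629 (log2 0.18) in the authors' deposited table. Neither passed, and the difference between them was not tested.

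Polymerase and primase genes had a median log2 of 0.10, with 10 of 12 above 0 and none past the threshold. Pole3, an accessory subunit of polymerase epsilon with a histone fold, had the smallest p of the role, with 361 in GFP+ against 304 in Tomato+ (log2 0.25, adjusted p = 0.584, the authors' deposited table). The catalytic subunits had 999 and 916 for Pola1, 1531 and 1431 for Pold1, and 1090 and 1163 for Pole in the authors' deposited table. Their log2 values of 0.13, 0.10 and -0.09 put Pole alone of the 3 on the Tomato+ side. The primase genes Prim1 and Prim2 stood at log2 values of 0.07 and 0.22 by the authors' deposited table. Pola2, Pold2 and Pold3 lay between 0.10 and 0.14, Pole2 and Pole4 at 0.02 and 0.09, and Pold4 had 128.7 in both fractions in the authors' deposited table. After scaling to equal totals, only 2 of these 12 genes, Prim2 and Pole3, were above 0.

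The regulators of S phase entry showed no common direction. Ccne2 and Ccne1, the E-type cyclins, stood at log2 values of 0.20 and -0.11 by the authors' deposited table, with means of 320 and 278 for Ccne2 and of 262 and 284 for Ccne1. E2f1, a transcription factor of S phase genes, had 449 in GFP+ against 455 in Tomato+ in the authors' deposited table. Uhrf1, which guides maintenance methylation to newly copied DNA, had 3403 and 3116, a log2 of 0.13 in the authors' deposited table.

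**Figure D3:**
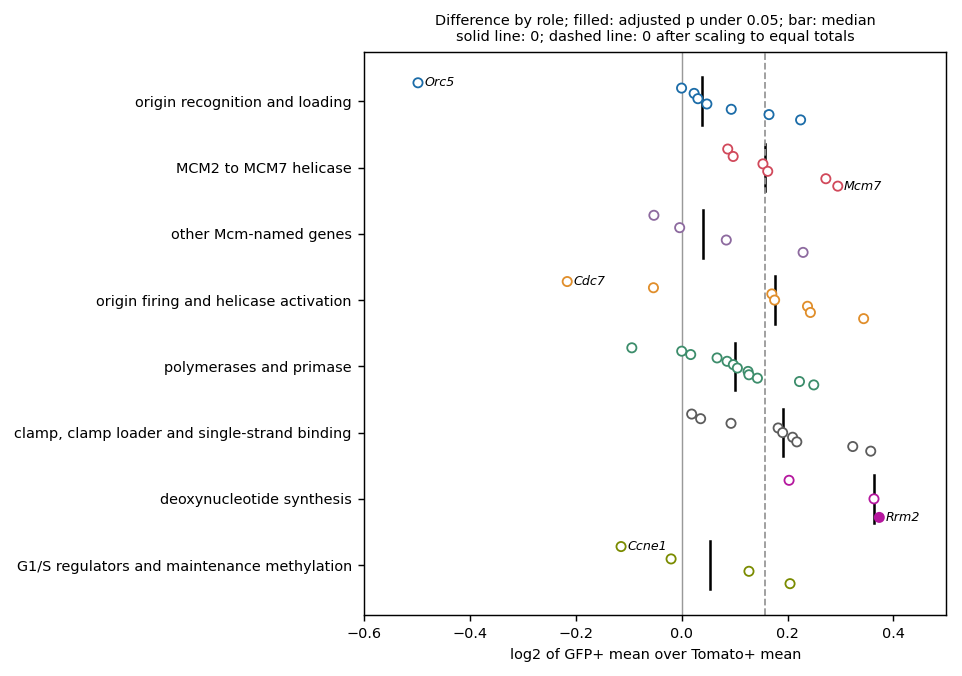
The log2 of the GFP+ over the Tomato+ mean for the 53 replication genes, 1 point a gene, in rows by role. Bars are role medians, from 0.04 in origin recognition to 0.36 in deoxynucleotide synthesis. Rrm2 is the only filled point, and the dashed line at 0.16 marks where 0 falls after scaling to equal totals.

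Differences of this size were rarely called anywhere in the table. Among the 8349 other genes in the members' range of means, 0.609% of the 1477 with a log2 of 0.2 to 0.3 in size passed, and 3.39% of the 767 with 0.3 to 0.4. The share was 28.6% at 0.4 to 0.6 and 69.2% at 0.6 to 1. Of the members, 0 of 13 passed at 0.2 to 0.3, 1 of 5 at 0.3 to 0.4 and 0 of 1 at 0.4 to 0.6. Members below the threshold are therefore not shown to be equal in both fractions.

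Levels between genes were compared per kb of the longest coding transcript (GENCODE M21), as means over both fractions. The authors' gene models may differ from these transcripts. Pcna had the highest level of all members, at 2231 normalized counts per kb, and Mcm9 the lowest, at 33.1. Per kb of coding sequence they also were highest and lowest, with 4325 and 41.8. The MCM2 to MCM7 subunits lay close together, from 579 per kb for Mcm4 to 1056 for Mcm7, a 1.82-fold span that is 2.13-fold per coding kb. The RPA subunits spanned less by both lengths, 1.78-fold and 1.33-fold. Those of GINS (3.83-fold and 2.40-fold) and of polymerase alpha-primase (2.59-fold and 2.69-fold) spanned more by both. Polymerase delta spanned 4.47-fold per kb and 1.84-fold per coding kb. The ORC subunits spanned 5.67-fold, from 63.9 per kb for Orc1 to 363 for Orc3, and 7.67-fold per coding kb, again with Orc1 lowest. Rrm1 stood at 875 and Rrm2 at 568 per kb, 1.54-fold apart. The spans within polymerase epsilon and RFC, 1.77-fold and 1.44-fold per kb, were 8.33-fold and 3.49-fold per coding kb, so their order depends on the length used.

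**Figure D4:**
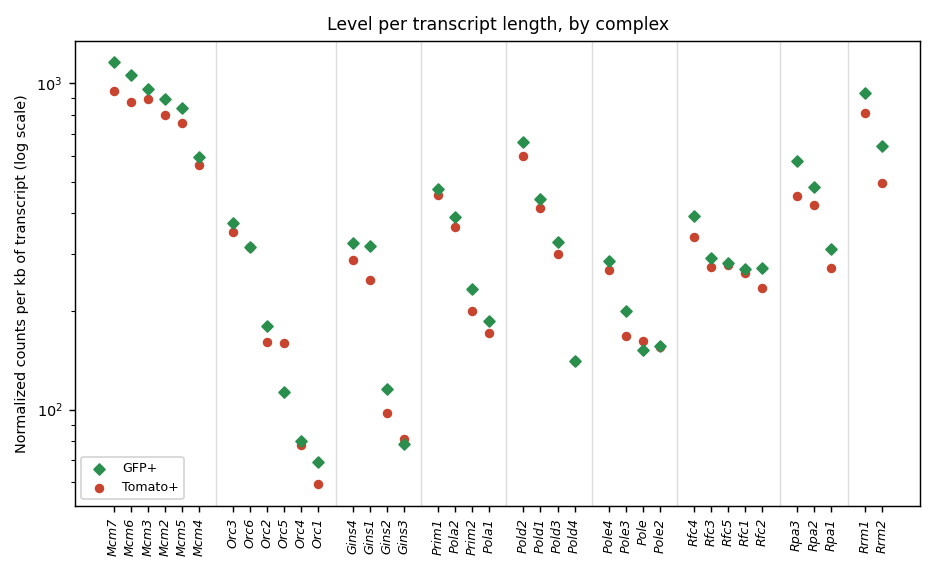
Normalized counts per kb of transcript (log axis) for the subunits of 9 complexes, in GFP+ (diamonds) and Tomato+ cells (circles). As means over both fractions the MCM subunits lie between 579 and 1056, while ORC spans from 363 for Orc3 down to 63.9 for Orc1, and Orc5 shows the widest gap between the fractions.

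Related genes outside the rule were read from lists of named genes. Of 30 nucleotide supply genes, 1 rose (3.33%, against 4.86% of all rows called higher) and 0 fell. Their median log2 was 0.24, with 27 above 0. In the authors' DESeq, 7 had an unadjusted p under 0.05 (23.3%, against 16.2% of all rows). The riser was Nme2, a nucleoside diphosphate kinase, with 2632 in GFP+ against 1799 in Tomato+ (log2 0.55, adjusted p = 6.53e-04, the authors' deposited table). Its neighbour Nme1 had a log2 of 0.38 and an adjusted p of 0.0694 in the authors' deposited table. Nme1 and Nme2 are close in sequence, and the sources used here do not say how reads shared between them were counted. Of 12 genes that rebuild chromatin behind the fork, 0 passed, with a median of 0.18. Among them 3 had an unadjusted p under 0.05 in the authors' DESeq (25%, against 16.2% of all rows). Rbbp4 and Hat1, a histone chaperone and a histone acetyltransferase, had 0.34 and 0.35 in the authors' deposited table.

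Of 17 fork and Okazaki fragment genes 0 passed, with a median log2 of 0.09. Among them 2 had an unadjusted p under 0.05 in the authors' DESeq (11.8%, against 16.2% of all rows). Fen1, the flap nuclease, and Top1, a topoisomerase, had 0.30 and 0.29 in the authors' deposited table. Among 15 genes found of those that control licensing and firing, 0 passed, with a median of 0.07. In the authors' DESeq, 4 of them had an unadjusted p under 0.05 (26.7%, against 16.2% of all rows). In this list Gmnn, which encodes the Cdt1 inhibitor geminin, had 730 in GFP+ against 575 in Tomato+ in the authors' deposited table, a log2 of 0.34, and Ccna2, cyclin A, had 0.29. Scaled to equal totals, the medians of these 4 lists are 0.08 for nucleotide supply and 0.03 for chromatin, but turn to -0.07 for the fork and -0.08 for licensing.

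Among 17 E2F, Rb and DREAM genes, 1 rose (5.88%, against 4.86% of all rows called higher) and 0 fell. Their median log2 was -0.0052, and 2 had an unadjusted p under 0.05 in the authors' DESeq (11.8%, against 16.2% of all rows). E2f2 rose 1.64-fold, from 303 in Tomato+ to 497 in GFP+ (log2 0.71, adjusted p = 1.66e-07, the authors' deposited table), while E2f1 of the members had a log2 of -0.02. Rbl2, the pocket protein p130 of resting cells, had 355 and 506, a log2 of -0.51 just outside the threshold (adjusted p = 0.0502, the authors' deposited table).

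Mitotic genes had a larger median difference than the replication genes. All 20 leaned to GFP+, of which 4 rose (20%, against 4.86% of all rows called higher) and 0 fell. Their median was 0.34, or 0.18 after scaling to equal totals. In the authors' DESeq, 16 of the 20 had an unadjusted p under 0.05 (80%, against 16.2% of all rows). Ube2c, of the anaphase-promoting pathway, rose from 1344 to 2087 (log2 0.64, adjusted p = 7.84e-05), Ccnb1 rose by a log2 of 0.43, Aurka by 0.48 and Mki67 by 0.30 in the authors' deposited table. The mitotic median of 0.34 and the replication median of 0.13 shift alike with scaling, and the difference between these lists was not tested.

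**Figure D5:**
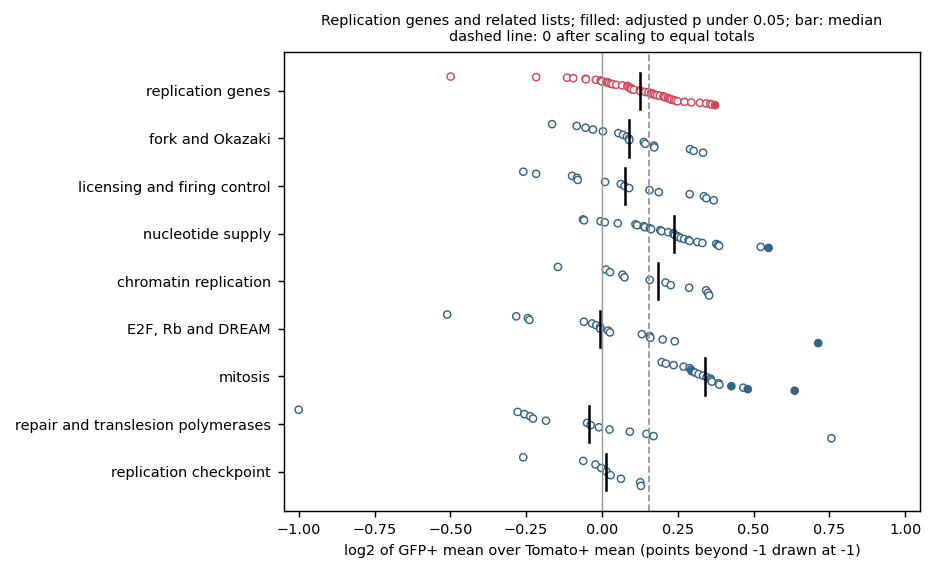
The log2 of the GFP+ over the Tomato+ mean in the replication genes and 8 related lists, 1 point a gene, filled where the adjusted p was under 0.05, with bars at the medians. The mitotic genes lie furthest to the right, at a median of 0.34, against 0.13 for replication genes and -0.0052 for E2F, Rb and DREAM genes.

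Markers of cell types, stem cells among them, moved between the fractions as well. Over all rows, 4.86% were called higher in GFP+ and 2.64% lower. Of 11 erythroid markers 8 rose and 1 fell, and their summed means were 38726 in GFP+ against 12548 in Tomato+. The largest parts of both sums were Hba-a2, with 16122 and 4190, and Hbb-b1, with 15589 and 4780. Gata1 was the marker that fell (log2 -1.06, adjusted p = 0.0210, the authors' DESeq). Epor and Klf1 stood at -0.89 and -0.46 and did not pass. Of 10 hepatoblast markers 9 rose, with sums of 3020 and 1007, and of 9 macrophage markers 8 rose, with sums of 1407 and 390. Of 8 lymphoid progenitor markers 8 rose, of 9 stem cell markers 9 fell, of 6 megakaryocyte markers 4 fell, and of 7 neutrophil lineage markers 2 rose and 2 fell. No marker was at 0 in either fraction. The erythroid globins Hba-a2 and Hbb-b1 stood at 1.94 and 1.71 in log2, the hepatoblast genes Alb and Afp at 2.45 and 2.49, and the macrophage genes Cd5l and Marco at 2.79 and 3.06, by the authors' deposited table. The globin values are uncertain, since near-identical copies share reads. Ccr9 and Rag1 of lymphoid progenitors stood at 3.20 and 3.29, and Elane and Ngp of the neutrophil lineage at -2.45 and 1.61, by the authors' deposited table. The stem cell markers Vwf and Esam stood at -2.76 and -2.11 and the megakaryocyte markers Itga2b and Pf4 at -1.97 and -1.45, by the authors' deposited table. Of the sort genes, Kit had 4087 and 4950, Ly6a (Sca1) 59.5 and 70.1, and Slamf1 (CD150) 27.9 and 119 in GFP+ and Tomato+ in the authors' deposited table. The part of the cell types marked here in the rise of Rrm2, and in the small differences of the other members, was not tested.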

How the data were processed

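RNA libraries of 4 GFP+ and 4 Tomato+ sorted fractions were compared through 1 deposited table (14268 rows). The submitters' processing notes name DESeq, bedtools, TopHat, TopHat2 2.0.11 and Bowtie2 2.2.1, and build mm9, without roles or settings. The authors deposited, per the file headers, a base mean signal (normalized counts averaged over libraries) for each fraction, the ratio of both, its log2 and a p-value with its adjusted form. The 1 repeated header line was dropped and the sign turned, so that positive means higher in GFP+. A call is the authors' adjusted p under 0.05 over all rows. The planned test on counts per library could not be run, since the table used here holds none. The members, lists and rules were chosen with earlier results of these data known. Named genes are all members and, per list, the 2 with the smallest p. All called mitotic genes, the erythroid genes with a log2 below 0 and the sort genes Kit, Ly6a and Slamf1 were added, chosen after their values were seen. Older symbols were matched through RefSeq. Hba-a1, Ahsp, Ticrr and Dntt were not matched. The code for adjusting p-values and for calls was checked on simulated p-values, and the symbol rule and choice of rows on made-up examples. The other steps were not checked in this way. Python 3.11.15, pandas 2.3.3, numpy 2.4.6 and matplotlib 3.10.9 were used. Alternatives were other thresholds, a minimum mean of 50, other scalings, leaving out Mcm3ap and shorter E2F words.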

Additional observations from a re-analysis of the deposited data

How the results depend on the processing

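No paired analysis was possible because only group means were at hand. Other size factors, a replicate block and leaving out single libraries were not run, and depth limits could not be set. The count of 1 member past the threshold became 2 at an adjusted p under 0.1 (Pcna joined, with 9.63% of all rows called) and 0 at an adjusted p under 0.01 (4.90% of rows; 5 members at an unadjusted p under 0.05). It was 1 when the adjustment was recomputed, with a mean of at least 50, with every row of a symbol and without Mcm3ap. Over all rows, 1069 calls became 699 at an adjusted p under 0.01. Scaling to equal totals, which lowers every log2 by 0.16, turned the members' median from 0.13 to -0.030 and changed the sign of 20 members. It gave role medians of -0.12 for origin recognition, 0.0011 for MCM2 to MCM7, -0.12 for other Mcm-named genes, 0.019 for origin firing, -0.056 for polymerases, 0.034 for clamp, loader and RPA, 0.21 for deoxynucleotide synthesis and -0.10 for G1/S regulators. Centring on the median of the rows that averaged 50 or more gave 0.10 for the members, changed the sign of 4 of them, and gave 0.0081, 0.13, 0.0092, 0.14, 0.070, 0.16, 0.33 and 0.023 for the roles in the same order. Each shift is the same for every gene by construction. Rrm2 kept its direction under both scalings, at 0.22 and 0.34. E2F words of 7 bases, the same without the first T, were in 27 of 45 members (60.0%) and 19.4% of table genes, in place of 17 and 4.69%.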

Other observations

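DNA polymerases of repair and translesion synthesis copy short or damaged stretches rather than whole chromosomes. A list of 14 genes held these, Polg and Polg2 of the mitochondrial polymerase, and the accessory subunit gene Mad2l2. In the authors' DESeq 0 passed and 1 had an unadjusted p under 0.05 (7.14%, against 16.2% of all rows). Of the 14, 5 had a log2 above 0 and 9 below, and the median was -0.04. Polm, which fills gaps at DNA ends in antigen receptor rearrangement, had 12.4 in GFP+ and 45.1 in Tomato+ (log2 -1.86, adjusted p = 0.125, the authors' deposited table). Rev3l, the catalytic subunit of polymerase zeta, had 399 and 484 in the authors' deposited table. Of 9 replication checkpoint genes 0 passed and 0 had an unadjusted p under 0.05 in the authors' DESeq (16.2% of all rows). Their median log2 was 0.01, with a range from -0.26 to 0.13. Hus1 and Rad9, of the checkpoint clamp, stood at -0.26 and 0.13 in log2 by the authors' deposited table.

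The authors' p-values do not follow the size of the difference alone. Pola1 and Uhrf1 both had a log2 of 0.13, but unadjusted p was 1 for Pola1 and 0.248 for Uhrf1 in the authors' deposited table. These 2 genes also differ in level, with means over both fractions of 957 and 3259. Orc6, with equal means, had an unadjusted p of 0.538 in the authors' deposited table, below the 1 of Cdc6 with a log2 of 0.03. An adjusted p of 1 was given to 14 of the 53 members.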
